A study of Mus musculus with 8 samples.

Results

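Pleiotrophin and midkine, the products of Ptn and Mdk, are the members of a small family of secreted growth factors that bind heparin. Pleiotrophin binds the chondroitin sulphate chains of the receptor phosphatase PTPRZ1 and lowers its activity, and both factors also bind heparan sulphate on syndecans, LRP1, and nucleolin at the cell surface. ALK, a receptor tyrosine kinase, is activated downstream of both factors, by routes that remain debated. The pair is widely expressed in the embryo, is low in most adult tissues and is known for renewed expression in tumours, where it acts on tumour cells, vessels and immune cells.

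The genes described here are these 2 ligands (Ptn, Mdk), the receptors Ptprz1, Alk, Lrp1 and Ncl (nucleolin), and the 4 syndecans Sdc1, Sdc2, Sdc3 and Sdc4. They are 10 of the 35498 genes measured, and 9 of them were among the 16309 genes with enough reads to be tested, Alk being the exception. They were listed by name, but the set was chosen by way of Ptn, whose CPM in sgMif against sgSCR libraries gave one of the larger rises in earlier results of these data. The members' values in that comparison, and in any that uses its libraries, are therefore given as a description without a test. The libraries labelled shMif and shSCR share no sample with it, and the members were tested there.

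Bulk RNA sequencing was carried out on sorted mouse sarcoma cells to ask how Mif, which encodes the cytokine macrophage migration inhibitory factor, acts on pathways within the tumour cells. Every group shared 1 background: C57BL/6 mesenchymal stem cells transformed by p53 deletion and overexpressed Ccne1, the gene of cyclin E1, and passaged through a first tumour. The 4 groups of 2 libraries each were sgMif (Cas9 and a guide RNA against Mif, labelled Mif-knockout), sgSCR (Cas9 and a control guide, Mif-wildtype), shMif (a short hairpin RNA against Mif, Mif-knockdown) and shSCR (a control hairpin, Mif-wildtype). The submitters' descriptions differ on whether the hairpin cells also carried Cas9. The cells were grown under the skin of secondary recipient mice on polyurethane scaffolds until the tumours measured about a cubic centimetre, then sorted on a fluorescent marker. Neither the marker, the age of the recipients, nor whether the lines were clones is given in the sources used here. It is also not stated whether paired libraries had different mice as their source, and a p-value here reflects no more than library-to-library spread, possibly technical.

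The libraries held 19042235 to 51819308 estimated reads. Mif was at 221 and 222 CPM (counts-per-million units) in sgMif libraries, against 377 and 455 CPM in sgSCR libraries. It was at 277 and 222 CPM in the libraries labelled shMif, against 170 and 375 CPM in shSCR libraries, so the hairpin groups overlapped and their labels were not borne out by Mif itself (log2 fold change -0.13 ± 0.32 SE, edgeR adjusted p = 0.925). Directions drawn from those libraries are therefore those of the label. All 9 mesenchymal markers had reads in every library, at unlike levels. Vim was at 5938 to 8596 CPM, Col1a1 at 1979 to 8924 CPM and Pdgfra at 387 to 680 CPM. Thy1 and Eng were low, at 2.70 to 24.3 CPM and 2.10 to 17.8 CPM. Reads on 1406 olfactory receptor genes, which these cells are not known to use, divided the libraries into 5 above 1000 CPM (sgMif 1, both sgSCR, shMif 1, shSCR 1) and 3 below it (sgMif 2, shMif 2, shSCR 2). In bulk samples, fewer cells of a type and less RNA per cell cannot be told apart.

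Ptn was the member whose level separated all 4 groups, and the stretch of DNA upstream of it is printed because the gene was higher with both Mif labels. Ptn lies on the minus strand of chromosome 6 at 36714929 to 36810220 (mm10), and the RefSeq promoter table of build GRCm38.p6 gives 209 bases upstream of the annotated start at chr6:36810221-36810429, minus strand. Capitals mark its 3 CpG dinucleotides, the sites at which mammalian DNA is methylated.
Ptn promoter: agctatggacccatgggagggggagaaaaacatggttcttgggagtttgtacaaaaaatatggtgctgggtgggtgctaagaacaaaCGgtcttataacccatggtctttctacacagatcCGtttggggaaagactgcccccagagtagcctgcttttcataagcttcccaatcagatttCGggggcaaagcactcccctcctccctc
All 32851 promoters in the table were read over their first 209 bases, a length set by the annotated start of Ptn and not by their own starts. The stretch was 49.8% G and C, against a median of 51.7% over them, and its CpG count stood against a median of 4. On either strand it held no match to TATAAA (the TATA box), GGGCGG (the GC box), CACGTG (the E box of MYC) or TGANTCA (the AP-1 element). These motifs were found in the first 209 bases of 9.5%, 26.5%, 4.6% and 5.8% of all the promoters. No match says only that these letters are not in this stretch.

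Ptn (ENSMUSG00000029838), the gene of pleiotrophin, was at 44.3 and 41.0 CPM in sgMif libraries, against 15.6 and 14.1 CPM in sgSCR libraries. The means were 42.7 ± 2.29 CPM in sgMif and 14.9 ± 1.07 CPM in sgSCR libraries (SD, n = 2 each). This was a 2.87-fold difference, or 1.52 ± 0.23 SE on the log2 scale, given as a description because the gene was known from this comparison. In the libraries labelled shMif, Ptn was at 27.9 and 29.98 CPM, against 6.33 and 9.99 CPM in shSCR libraries. Both labelled shMif libraries lay above both shSCR libraries, by 3.54-fold (log2 fold change 1.82 ± 0.23 SE). That difference did not pass edgeR's quasi-likelihood test over all 16309 genes (Benjamini-Hochberg adjusted p = 0.0999), although only 5 genes had a smaller p. It passed with DESeq2 (adjusted p = 2.52e-09).

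The library shSCR 2 bore on that call. With 1 library left out, the spread of the lone shSCR library came from the other groups, here and for the other members. Without shSCR 2 the log2 fold change of Ptn between libraries labelled shMif and shSCR was 2.19 with an adjusted p of 0.00456 in edgeR's test, and without shSCR 1 it was 1.53 with an adjusted p of 0.158. Within the class with many olfactory receptor reads, a single library labelled shMif against a single shSCR library differed by 2.14 on the log2 scale, a value with no replicate check. The difference of effects between sgMif against sgSCR and labelled shMif against shSCR was -0.31 ± 0.31 SE on the log2 scale, not tested because the first comparison chose the gene.

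The hairpin and guide controls also differed in Ptn. The shSCR libraries lay below both sgSCR libraries by 1.82-fold (log2 fold change -0.86 ± 0.23 SE), as a description. The 4 groups thus stood in the order sgMif, labelled shMif, sgSCR and shSCR with no overlap between them. Estimated reads on the gene numbered 970 and 1820 in sgMif, 542 and 1054 in labelled shMif, 621 and 283 in sgSCR, and 244 and 495 in shSCR libraries. The annotated protein-coding transcript of 1614 bases took 99.2 to 100% of them in every library.

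**Figure D1:**
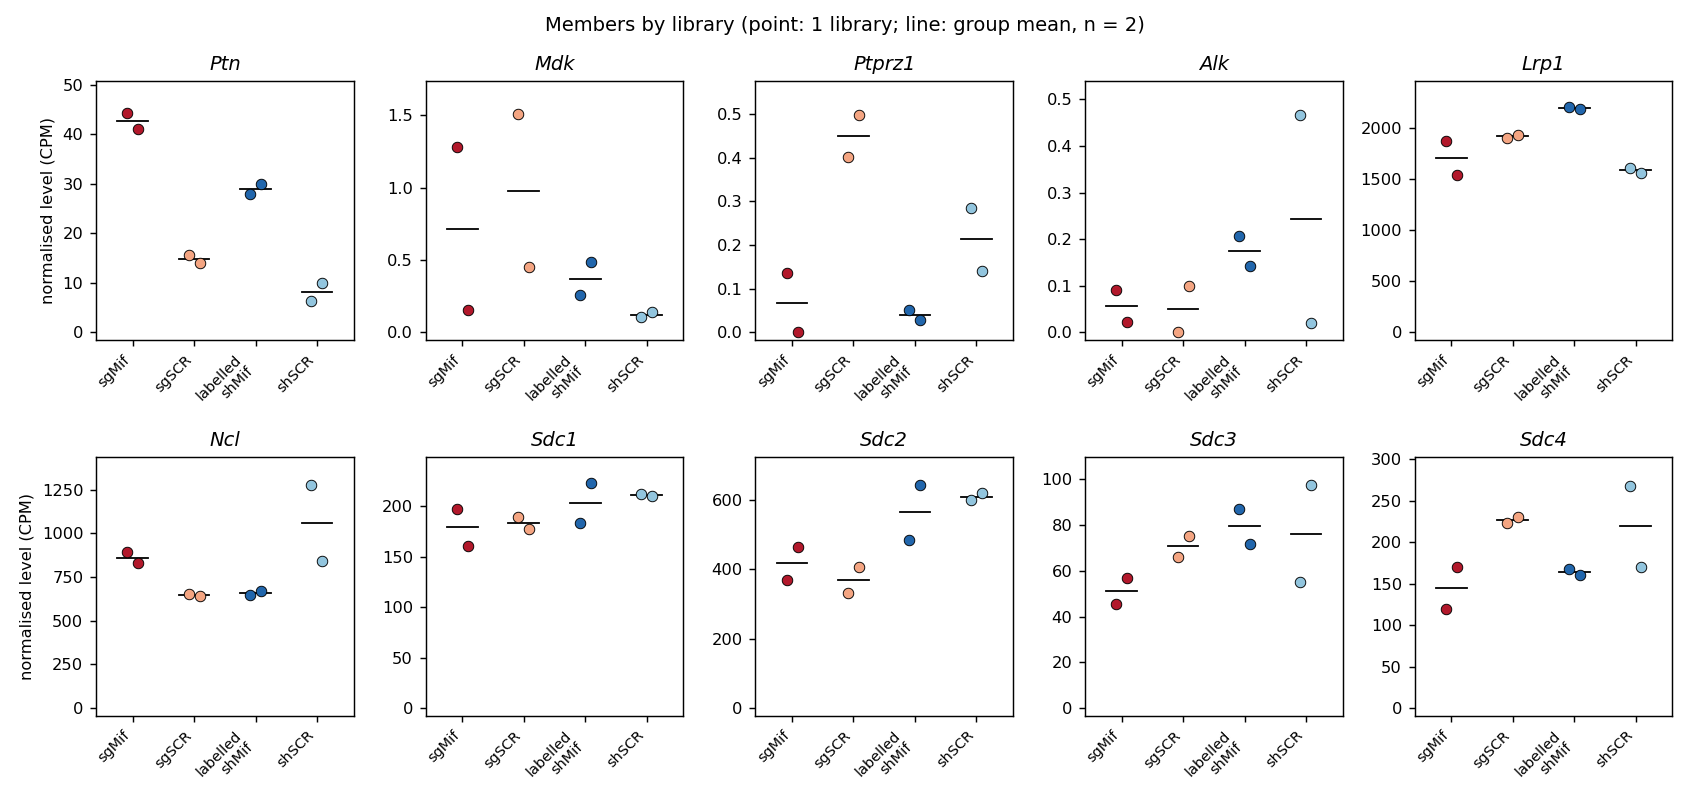
Normalised level (CPM, linear axis) of each of the 10 genes in the 8 libraries, 1 panel a gene, with groups along the horizontal axis, each point a library and each bar the group mean. Both Ptn points of sgMif and of the labelled shMif group lie above those of sgSCR and shSCR, while the points of Sdc1 and Sdc2 overlap between each Mif label and its control.

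Summed levels of cell type markers were set beside Ptn. The 9 mesenchymal markers summed to 25220 and 23710 CPM in sgMif libraries, against 19760 and 20110 CPM in sgSCR libraries. They summed to 19540 and 24770 CPM in the libraries labelled shMif, against 12860 and 18040 CPM in shSCR libraries. The sums were thus higher with either Mif label without overlap, as Ptn was, but the markers did not all go that way. In sgMif against sgSCR libraries 5 of the 9 were higher without overlap (Vim, Col1a1, Col1a2, Cd44 and Pdgfrb), 2 were lower (Nt5e and Pdgfra) and 2 overlapped. In labelled shMif against shSCR libraries 4 were higher (Col1a1, Col1a2, Thy1 and Pdgfrb), 2 were lower (Nt5e and Cd44) and 3 overlapped. Most of the sum was the collagens and Vim, and the part of these genes' cells in the level of Ptn was not tested. Schwann cells and glia are other sources of Ptn and of Ptprz1. Their 6 markers summed to 3.51 and 2.998 CPM in sgMif, 4.58 and 7.48 CPM in sgSCR, 6.44 and 4.44 CPM in labelled shMif, and 2.28 and 3.47 CPM in shSCR libraries, with Sox10, their defining factor, at 0.208 CPM or less. The 6 skin fibroblast markers summed to 463 and 316 CPM in sgMif libraries, against 1509 and 1232 CPM in sgSCR libraries. They summed to 767 and 786 CPM in the libraries labelled shMif, against 640 and 729 CPM in shSCR libraries. This list ran against Ptn in the guide libraries, where 5 of its 6 markers were lower in sgMif without overlap, with Dcn the most abundant. In the hairpin libraries it ran with Ptn: 5 of the 6 (Lum, Dpt, Pi16, Col14a1 and Cd34) were higher in labelled shMif without overlap, and Dcn overlapped. The 5 pericyte markers summed to 472 and 352 CPM in sgMif libraries, against 242 and 275 CPM in sgSCR libraries, and to 402 and 377 CPM in those labelled shMif, against 388 and 448 CPM in shSCR libraries. Most of that sum was Cspg4, a proteoglycan that sarcoma cells also make, while Rgs5 reached 3.38 CPM and Kcnj8 0.249 CPM at most. Of the 5, Cspg4 was higher in sgMif than in sgSCR libraries without overlap, Kcnj8 was lower and 3 overlapped. Rgs5 was higher in labelled shMif than in shSCR libraries without overlap, 0 were lower and 4 overlapped. The part of any of these cell types in the level of Ptn was not tested.

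Mdk (ENSMUSG00000027239, chromosome 2, 91929805 to 91932297, minus strand, mm10), the gene of midkine, was the scarcer ligand. It had 28 and 7 reads in sgMif libraries, against 60 and 9 reads in sgSCR libraries, or 1.28 and 0.158 CPM against 1.51 and 0.449 CPM. These groups overlapped, and libraries of 1 group differed more than the groups did. In the libraries labelled shMif it had 5 and 17 reads (0.257 and 0.484 CPM), against 4 and 7 reads (0.104 and 0.141 CPM) in shSCR libraries. Both labelled shMif libraries lay above both shSCR libraries, with a log2 fold change of 1.61 ± 1.2 SE that missed the threshold by far (edgeR adjusted p = 0.687). The pooled reads, 22 against 11, gave a ratio of CPM of 3.23 with a 95% counting interval of 1.5 to 7.37, which covers counting error only. Leaving out single libraries moved the log2 difference of Mdk between sgMif and sgSCR between -2.64 and 0.64, so no direction can be read there.

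Endothelial markers, 5 genes, summed to 152 and 32.6 CPM in sgMif, 258 and 271 CPM in sgSCR, 163 and 48.4 CPM in labelled shMif, and 205 and 34.1 CPM in shSCR libraries. Most of the sum was Pecam1, which was at 111 and 24.98 CPM in sgMif, 246 and 261 CPM in sgSCR, 154 and 37.0 CPM in labelled shMif, and 195.5 and 20.8 CPM in shSCR libraries, high in the 5 libraries with many olfactory receptor reads. The other 4 markers (Cdh5, Kdr, Tek and Emcn) summed to 40.4 and 7.64 CPM in sgMif, 11.5 and 10.5 CPM in sgSCR, 9.37 and 11.3 CPM in labelled shMif, and 9.13 and 13.3 CPM in shSCR libraries, and did not follow that class. Mdk was higher in sgMif 1 than in sgMif 2 and in sgSCR 1 than in sgSCR 2, but lower in shMif 1 than in shMif 2 and in shSCR 1 than in shSCR 2. The part of endothelial cells in its level was not tested.

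Ptprz1 (ENSMUSG00000068748), the receptor phosphatase, and Alk (ENSMUSG00000055471), the receptor kinase, were at the limit of detection. Ptprz1 lies on the plus strand of chromosome 6 at 22875502 to 23052916, and Alk on the minus strand of chromosome 17 at 71868972 to 72604627 (mm10). Ptprz1 had 3 and 0 reads in sgMif libraries, against 16 and 10 reads in sgSCR libraries. It had 1 read in each library labelled shMif, against 11 and 7 reads in shSCR libraries. The few reads were thus lower with both Mif labels, without overlap. A transcript annotated as a retained intron held 2 and 0 of them in sgMif, 16 and 3 in sgSCR, 1 and 1 in labelled shMif, and 6 and 6 in shSCR libraries. Protein-coding transcripts held 1 and 0 in sgMif against 0 and 7 in sgSCR libraries, which overlap. They held 0 and 0 in labelled shMif against 5 and 1 in shSCR libraries. Pooled, the ratio of CPM of sgMif to sgSCR was 0.104 (95% counting interval 0.0202 to 0.34), and that of labelled shMif to shSCR was 0.179 (0.0202 to 0.749). Ptprz1 passed the filter on low counts only through its control libraries, so its low count with the Mif labels was partly built in. The same holds for both ratios and their intervals, from which no difference is read. In edgeR's test of labelled shMif against shSCR its log2 fold change was -2.48, with an adjusted p of 0.666. Alk had 2 and 1 reads in sgMif libraries, against 0 and 2 reads in sgSCR libraries. It had 4 and 5 reads in libraries labelled shMif, against 18 and 1 reads in shSCR libraries, and its groups overlapped in both comparisons.

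The level of these receptors was set against genes that sarcoma cells are not known to use. On the TPM scale, which corrects for transcript length, Ptprz1 was at 0 to 0.181 and Alk at 0 to 0.112 TPM across the 8 libraries. The mean over olfactory receptor genes was 0.122 to 0.739 TPM, above Ptprz1 and Alk in every library. That mean was set by a minority of them: their median was 0 TPM in every library. Their 90th percentile was 0.127 to 0.715 TPM, also above Ptprz1 and Alk in every library. Expression of either receptor could not be told from this background at the depth of these libraries. Mdk, at 0.137 to 3.15 TPM, was above that mean in 6 libraries and below it in shMif 1 and shSCR 1.

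Lrp1 (ENSMUSG00000040249, chromosome 10, 127538161 to 127621148, minus strand, mm10) encodes a large endocytic receptor that binds midkine among many ligands. It was at 1872 and 1535 CPM in sgMif libraries, against 1899 and 1934 CPM in sgSCR libraries. It was at 2202 and 2188 CPM in libraries labelled shMif, against 1608 and 1564 CPM in shSCR libraries. Lrp1 was thus lower than sgSCR in both sgMif libraries, sgMif 1 by a small margin, and higher than shSCR in both libraries labelled shMif. The log2 fold change was -0.17 ± 0.14 SE for sgMif against sgSCR, as a description. For labelled shMif against shSCR it was 0.47 ± 0.14 SE, or 1.38-fold, and did not pass (edgeR adjusted p = 0.462). The annotated protein-coding transcript of 14888 bases took 97.1 to 98.3% of the reads of the gene.

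Ncl (ENSMUSG00000026234, chromosome 1, 86344719 to 86359400, minus strand, mm10) encodes nucleolin, a nucleolar protein of ribosome assembly that binds both ligands when it is at the cell surface. It was at 893 and 831 CPM in sgMif libraries, against 653 and 641 CPM in sgSCR libraries. It was at 646 and 673 CPM in libraries labelled shMif, against 1277 and 845 CPM in shSCR libraries. Ncl was therefore above its control in the guide libraries and below it in the hairpin libraries, both without overlap. The log2 fold change was 0.41 ± 0.19 SE in sgMif against sgSCR (1.33-fold), as a description. In labelled shMif against shSCR it was -0.69 ± 0.19 SE (1.61-fold lower) and did not pass (edgeR adjusted p = 0.448). Here shSCR 1 was far above shSCR 2: without shSCR 1 the log2 fold change was -0.36 (adjusted p = 1.00), and without shSCR 2 it was -0.95 (adjusted p = 0.0123).

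Reads of Ncl fell mostly on a transcript annotated as a retained intron. That transcript, of 3072 bases, took 86.1 and 84.2% of the reads of the gene in sgMif, 82.8 and 83.5% in sgSCR, 85.3 and 86.2% in labelled shMif, and 91.3 and 88.5% in shSCR libraries. The protein-coding transcript of 8202 bases took 7.80 to 15.3%. Over protein-coding transcripts alone, the log2 fold change of Ncl in labelled shMif against shSCR was -0.20 (edgeR adjusted p = 0.668). Transcripts annotated as retained introns held 3.95 and 3.95% of all reads in sgMif, 4.84 and 4.42% in sgSCR, 4.53 and 4.06% in labelled shMif, and 5.41 and 3.90% in shSCR libraries. The highest share, in shSCR 1, was in the library with the highest Ncl CPM, and its part in the result was not tested.

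Syndecans are transmembrane proteoglycans whose heparan sulphate chains hold growth factors at the cell surface. Sdc4 (ENSMUSG00000017009, chromosome 2, 164424247 to 164443887, minus strand, mm10), which joins integrins in focal adhesions, was at 119 and 170 CPM in sgMif libraries, against 223 and 230 CPM in sgSCR libraries. It was at 168 and 161 CPM in libraries labelled shMif, against 268 and 170 CPM in shSCR libraries. Sdc4 was lower with both Mif labels without overlap, though shSCR 2 lay next to the labelled shMif libraries. The log2 fold change was -0.65 ± 0.24 SE in sgMif against sgSCR (1.57-fold lower), as a description, and -0.41 ± 0.24 SE in labelled shMif against shSCR (1.33-fold lower, edgeR adjusted p = 0.613). Without shSCR 1 the hairpin value was -0.06, and without shSCR 2 it was -0.71 (edgeR adjusted p = 1.00 and 0.105). The 8 leukocyte and macrophage markers summed to 99.7 and 65.7 CPM in sgMif, 329 and 133 CPM in sgSCR, 258 and 135 CPM in labelled shMif, and 153 and 156 CPM in shSCR libraries. The sum was lower in sgMif than in sgSCR libraries without overlap, as Sdc4 was, and in the hairpin libraries it overlapped. Mrc1 and Cd163 set much of that gap. Without them the sums were 97.7 and 60.1 CPM in sgMif libraries, against 119 and 73.9 CPM in sgSCR libraries, which overlap. The largest part of these sums was Lyz2, at 64.5 and 30.6 CPM in sgMif against 38.2 and 30.3 CPM in sgSCR libraries. Marker by marker, 5 of the 8 were lower in sgMif without overlap (Cd68, Adgre1, Mrc1, Cd163 and Fcgr1), 0 were higher and 3 overlapped. In the hairpin libraries all 8 overlapped. The part of these cells in the level of Sdc4 was not tested.

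Sdc3 (ENSMUSG00000025743, chromosome 4, 130792537 to 130826319, plus strand, mm10), a receptor of pleiotrophin in neurons, was at 45.7 and 57.0 CPM in sgMif libraries, against 66.2 and 75.3 CPM in sgSCR libraries. It was at 87.2 and 71.9 CPM in libraries labelled shMif, against 55.3 and 97.4 CPM in shSCR libraries. The guide groups did not overlap (log2 fold change -0.46 ± 0.26 SE, as a description). The hairpin groups overlapped (log2 fold change 0.06 ± 0.26 SE, edgeR adjusted p = 0.962).

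Sdc1 (ENSMUSG00000020592, chromosome 12, 8771323 to 8793715, plus strand, mm10), the syndecan of epithelia and plasma cells, was at 198 and 161 CPM in sgMif libraries, against 189 and 178 CPM in sgSCR libraries. It was at 184 and 223 CPM in libraries labelled shMif, against 213 and 210.0 CPM in shSCR libraries. Its groups overlapped in both comparisons (log2 fold changes -0.03 and -0.05, the second with SE 0.15 and edgeR adjusted p = 0.936). Markers of B and plasma cells, 7 genes, summed to 3.31 to 62.9 CPM and those of keratinocytes, 6 genes, to 2.59 to 8.78 CPM, both below Sdc1 in every library. Reads of Sdc1 were split between protein-coding transcripts of 3157 and 2311 bases, which took 39.9 to 57.4% and 41.8 to 60.03% of them.

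Sdc2 (ENSMUSG00000022261, chromosome 15, 32920723 to 33034935, plus strand, mm10), the syndecan of mesenchymal cells, was at 369 and 463 CPM in sgMif libraries, against 330 and 407 CPM in sgSCR libraries. It was at 485 and 642 CPM in libraries labelled shMif, against 598 and 618 CPM in shSCR libraries. Its groups overlapped in both comparisons (log2 fold changes 0.18 and -0.11, the second with SE 0.19 and edgeR adjusted p = 0.882). All 4 hairpin libraries lay above all 4 guide libraries. Between the controls, shSCR stood 1.65-fold above sgSCR (log2 fold change 0.72 ± 0.19 SE), as a description.

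Across the members, the comparison of labelled shMif with shSCR gave no call in edgeR's test among the 9 members tested, against 0.0184% of all genes tested. At an unadjusted p under 0.05 it gave 3 (Ptn, Ncl and Lrp1), against 9.26% of all genes, and DESeq2 called 1 (Ptn), against 1.38%. In this comparison 6 of 9 members did not overlap between groups, against 41.7% of all genes. In sgMif against sgSCR, where 0.987% of all genes were called, 6 of 9 members did not overlap, against 51.3% of all genes, from which nothing is read because earlier results there were known. In both comparisons at once, 1 member lay above its control without overlap (Ptn, against 4.57% of all genes), 2 lay below it (Ptprz1 and Sdc4, against 4.18%) and 2 went opposite ways (Lrp1 and Ncl, against 13.1%). Ptprz1 passed the filter only through its control libraries, so its part in these counts of members without overlap was partly built in. The median log2 fold change over the 9 members was -0.17 in sgMif against sgSCR and -0.05 in labelled shMif against shSCR, beside -0.01 and 0.03 over all genes tested.

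**Figure D2:**
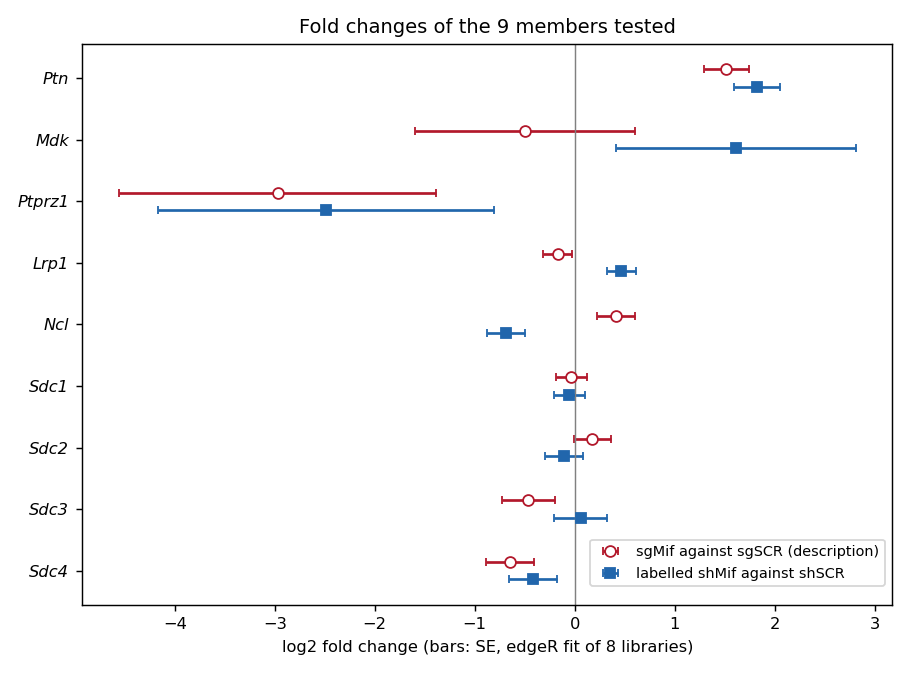
Log2 fold change of the 9 members tested (horizontal axis) for sgMif against sgSCR and for labelled shMif against shSCR, with bars of 1 SE from the edgeR fit. Ptn stands at 1.52 and 1.82, Lrp1 at -0.17 and 0.47 and Ncl at 0.41 and -0.69, while the bars of Mdk and Ptprz1 are the widest.

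On the TPM scale the members spanned several orders of magnitude. The mean level over the 8 libraries was 363 TPM for Ncl (293 to 543), 303 TPM for Lrp1 (255 to 352), 191 TPM for Sdc2 (133 to 238), 100.3 TPM for Sdc4 (66.0 to 135) and 87.6 TPM for Sdc1 (71.1 to 97.8). It was 22.6 TPM for Ptn (5.71 to 44.3), 21.9 TPM for Sdc3 (12.5 to 34.2), 1.01 TPM for Mdk, 0.0734 TPM for Ptprz1 and 0.0279 TPM for Alk. Neighbours in this order whose ranges overlapped were Ncl and Lrp1, Sdc2 and Sdc4, Sdc4 and Sdc1, Ptn and Sdc3, Mdk and Ptprz1, and Ptprz1 and Alk. Within each library Sdc2 was nevertheless above Sdc4 and Mdk above Ptprz1. The order of Ptn and Sdc3 differed between libraries, with Ptn the higher in 3 (both sgMif libraries and shMif 2).

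The rank of Ncl and Lrp1 depended on which transcripts were summed. With protein-coding transcripts alone the mean was 28.3 TPM for Ncl, since the retained-intron transcript was left out, and 218 TPM for Lrp1. Lrp1 then had the highest mean of the 10, and Ncl stood between Sdc1 and Ptn. That place of Lrp1 rested in part on a protein-coding transcript of 292 bases. This short transcript was at 57.0 to 118 TPM with 0.139 to 0.236% of the reads of the gene. The Lrp1 transcript of 14888 bases, which took most of the reads, was at 106 to 158 TPM, beside 133 to 238 TPM for Sdc2.

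**Figure D3:**
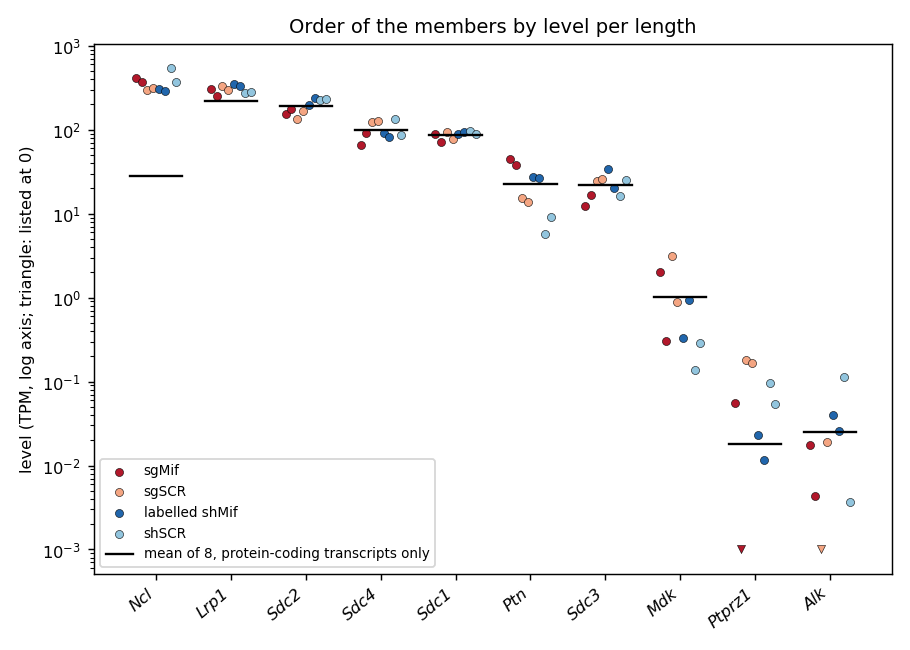
Level of each member in TPM (log axis) in each of the 8 libraries, with members ordered by their mean and colours for the groups. Ncl, Lrp1 and Sdc2 lie above 100 TPM in every library, Ptn spreads from 5.71 to 44.3 TPM, and Ptprz1 and Alk lie below 1 TPM.

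The genes around the pathway were described through 9 lists of 151 genes, 142 of them tested. In sgMif against sgSCR, 4 list genes passed edgeR's test at an adjusted p under 0.05, 1 higher (against 0.368% of all genes) and 3 lower (against 0.619%). DESeq2 called 20 there, against 6.58% of all genes. Between labelled shMif and shSCR none passed in edgeR's test, against 0.0184% of all genes. There 27 had an unadjusted p under 0.05, against 9.26% of all genes, and DESeq2 called 2, against 1.38%. No list gene passed the test of the difference between the 2 effects. The calls rested on all 4 guide libraries: with any of sgMif 1, sgMif 2, sgSCR 1 or sgSCR 2 left out, 0 list genes passed between sgMif and sgSCR. The count was 1 with either of the libraries labelled shMif left out, and 7 with either shSCR library left out. Between labelled shMif and shSCR, 10 passed without shSCR 2.

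The relatives of Lrp1 and its chaperone held 2 of the 4 calls among 10 tested genes. Vldlr, which binds lipoproteins and reelin, was at 3.92 and 4.51 CPM in sgMif libraries, against 16.4 and 21.6 CPM in sgSCR libraries (log2 fold change -2.17 ± 0.24 SE, edgeR adjusted p = 0.0189). It was at 11.2 and 10.01 CPM in libraries labelled shMif, against 10.1 and 11.8 CPM in shSCR libraries. Lrp8, a reelin receptor that also binds midkine, was at 192 and 160.5 CPM in sgMif libraries, against 75.8 and 68.0 CPM in sgSCR libraries (1.29 ± 0.22, edgeR adjusted p = 0.0405). It was at 89.3 and 112 CPM in libraries labelled shMif, against 79.6 and 118 CPM in shSCR libraries, where the groups overlapped. The list's median log2 fold change was 0.12 in sgMif against sgSCR and 0.00 in labelled shMif against shSCR. The smallest p among the hairpin libraries belonged to Lrp2, the endocytic receptor megalin (1.80, edgeR adjusted p = 0.489), and Lrpap1, the chaperone of Lrp1 (-0.47, edgeR adjusted p = 0.489).

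The sugar chains that bind the ligands were covered by lists of their enzymes. Among 27 tested genes of heparan sulphate synthesis and editing, 1 fell in sgMif libraries: Xylt1, a xylosyltransferase that starts the chains of proteoglycans. Xylt1 was at 44.3 and 45.3 CPM in sgMif libraries, against 84.5 and 93.6 CPM in sgSCR libraries (log2 fold change -0.99 ± 0.15 SE, edgeR adjusted p = 0.0358). It was at 47.7 and 40.8 CPM in libraries labelled shMif, against 70.9 and 59.0 CPM in shSCR libraries, lower without overlap but not past the threshold (-0.55, edgeR adjusted p = 0.448). The list's medians were -0.12 for sgMif against sgSCR and 0.15 for labelled shMif against shSCR, where Ndst1, a sulphotransferase of the chains, had the smallest p (0.51, adjusted p = 0.439).

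None of 15 tested genes of chondroitin and dermatan sulphate synthesis passed in edgeR's test. The smallest p in sgMif against sgSCR belonged to the sulphotransferases Chst3 (log2 fold change 0.89, adjusted p = 0.0772) and Chst15 (1.18, adjusted p = 0.0775). The hairpin libraries had it in Csgalnact1, which starts chondroitin chains (-0.63, adjusted p = 0.540), and Chst15 (0.57, adjusted p = 0.554). The medians were 0.15 for sgMif against sgSCR and 0.20 for labelled shMif against shSCR.

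Among 8 tested genes of other heparan sulphate proteoglycans, Tgfbr3, the co-receptor betaglycan of TGF-beta, fell in sgMif libraries. It was at 48.6 and 60.8 CPM in sgMif libraries, against 117 and 111 CPM in sgSCR libraries (log2 fold change -1.05 ± 0.16 SE, edgeR adjusted p = 0.0333). It was at 79.3 and 69.2 CPM in libraries labelled shMif, against 83.6 and 75.7 CPM in shSCR libraries, where the groups overlapped. The medians were -0.15 for sgMif against sgSCR and 0.34 for labelled shMif against shSCR, with Col18a1 (0.62, adjusted p = 0.520) and Gpc4 (0.58, adjusted p = 0.522) of the smallest p in the hairpin libraries. Tgfbr3 is also made by fibroblasts, whose marker sum, given beside Ptn, was lower in both sgMif libraries than in both sgSCR libraries. The part of those cells in the lower Tgfbr3, Vldlr and Xylt1 was not tested.

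Other binding partners of the ligands held no call among 18 tested genes. In sgMif against sgSCR, Cspg4, the proteoglycan NG2, had a log2 fold change of 0.69 (edgeR adjusted p = 0.104) and the integrin gene Itgav 0.55 (adjusted p = 0.113). Between labelled shMif and shSCR, Anxa2, which encodes annexin A2, had -0.51 (adjusted p = 0.455) and Vcan, the proteoglycan versican, 0.71 (adjusted p = 0.499). The medians were 0.00 and 0.03.

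Partners and sheddases of syndecans held no call among 14 tested genes. The kinase gene Prkca, whose product binds the tail of syndecan-4, had a log2 fold change of 0.63 in sgMif against sgSCR (edgeR adjusted p = 0.106) and the protease gene Mmp9 -0.63 (adjusted p = 0.185). Among the hairpin libraries, labelled shMif against shSCR, Tiam1, a Rac activator, had -0.69 (adjusted p = 0.377) and Mmp14, a membrane protease that sheds syndecans, -0.55 (adjusted p = 0.489). The medians were 0.08 in sgMif against sgSCR and -0.21 in labelled shMif against shSCR.

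Signalling genes behind the 2 low receptors held no call either. Of 14 tested substrates and partners of PTPRZ1, Nfasc, a cell adhesion molecule, had a log2 fold change of -2.63 (edgeR adjusted p = 0.278) and the kinase gene Fyn -0.40 (adjusted p = 0.321) in sgMif against sgSCR. For labelled shMif against shSCR, Afap1l2 had 1.53 (adjusted p = 0.439) and Fyn 0.45 (adjusted p = 0.520). Their medians were -0.20 and 0.25. Of 15 tested adaptors and kinases downstream of ALK, Stat3 had -0.45 (adjusted p = 0.158) and Akt1 0.33 (adjusted p = 0.375) in sgMif against sgSCR. The labelled shMif libraries against shSCR gave Mapk3 0.43 (adjusted p = 0.520) and Plcg1 -0.38 (adjusted p = 0.586). Their medians were 0.04 and -0.02.

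Nucleolar partners of nucleolin, the ribosome assembly genes, held no call among 21 tested. Their median was 0.27 in sgMif against sgSCR, with 19 above 0, and -0.24 in labelled shMif against shSCR, with 5 above 0. The medians over all genes tested were -0.01 and 0.03. Ncl had the same directions as the list medians in these comparisons. Genes measured in the same libraries can move together, so these counts are a description. Dkc1, the pseudouridine synthase dyskerin, had a log2 fold change of 0.74 (edgeR adjusted p = 0.0550) and its partner Nhp2 0.68 (adjusted p = 0.116) in sgMif against sgSCR. In labelled shMif against shSCR, Nop58, a core protein of small nucleolar particles, had -0.50 (adjusted p = 0.439) and Npm1, nucleophosmin, -0.58 (adjusted p = 0.476).

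**Figure D4:**
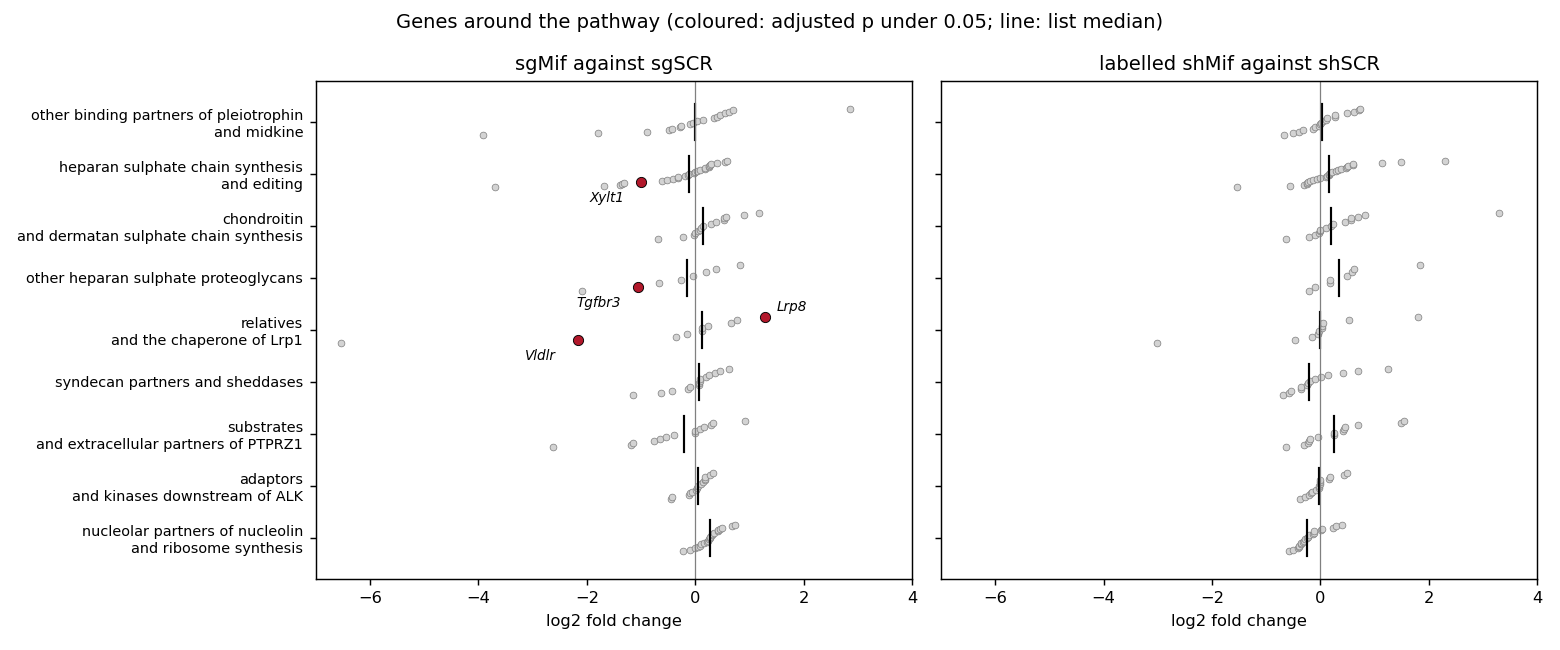
Log2 fold change (horizontal axis) of every tested gene of the 9 lists for sgMif against sgSCR and for labelled shMif against shSCR, each point a gene and each vertical bar the median of its list. The 4 coloured points, all in sgMif against sgSCR, are Lrp8 to the right and Vldlr, Tgfbr3 and Xylt1 to the left.

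The genes whose log2 CPM ran most like that of Ptn over the 8 libraries, among 11316 genes compared, were Sc5d, a sterol desaturase of cholesterol synthesis (Pearson r = 0.96), the ubiquitin ligase gene Rnf26 (0.96), D16Ertd472e (0.95), Pidd1, a p53-induced death domain gene (0.95), and Gtse1, a gene of the late cell cycle (0.95). Those most like Mdk were Cpxm1, a carboxypeptidase-like gene (0.97), Gpx3, a secreted glutathione peroxidase (0.95), Vwf, the von Willebrand factor of endothelium (0.95), the protease inhibitor gene Serpine2 (0.95) and the cadherin gene Dchs1 (0.95). The libraries of a group share their genotype and the points share scaling and depth, so these values are descriptions. Sc5d was at 40.6 and 35.8 CPM in sgMif libraries, against 20.2 and 19.8 CPM in sgSCR libraries. It was at 21.5 and 26.1 CPM in libraries labelled shMif, against 12.1 and 14.9 CPM in shSCR libraries, higher with both Mif labels without overlap. Gpx3 was at 45.7 and 4.89 CPM in sgMif, 52.9 and 28.1 CPM in sgSCR, 9.16 and 11.1 CPM in labelled shMif, and 1.63 and 3.29 CPM in shSCR libraries. Like Mdk, it was high in sgMif 1 and sgSCR 1 and low in both shSCR libraries.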

How the data were processed

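Total RNA was extracted with TRIzol from sorted tumour cells, per the labels' protocols, and reads were processed with Trimmomatic and Salmon on mm10, per the submitters' processing notes. For versions, library kit, strand and index release nothing is stated in the sources used here. The authors' deposited tables give an estimated count of reads and a TPM value for 116546 transcripts per library, per the file headers. TPM values were made by the authors relative to effective transcript length. Transcripts were joined to GENCODE M21 (115977 matched), and those of a gene that overlaps or resembles another may share reads.

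Estimated counts were summed per gene and rounded. Genes were kept with edgeR 4.0.16 filterByExpr (minimum count 10, total 15), scaled by TMM and tested in R 4.3.3 by edgeR's quasi-likelihood test (4 group means, 4 residual degrees of freedom) and Benjamini-Hochberg adjustment at 0.05. CPM values were computed here. Counting intervals are exact at 95% and cover counting error only. Members and lists were chosen with earlier results of these data known. From 1 list, 1 gene is not reported here and is left out of the list counts. Named list genes are up to 4 past the threshold per list, otherwise the 2 with the smallest p. Likeness to Ptn and Mdk used protein-coding genes averaging log2 CPM 1 or more, and the 5 highest r are named. Alternatives included DESeq2 1.42.0. The library class divides at 1000 CPM over olfactory receptor genes. Tested on simulated data, the comparison of sgMif with sgSCR recovered 20 of 100 genes changed 2-fold and 81 of 100 changed 4-fold among 15789 genes. That of labelled shMif with shSCR recovered 32 and 84 of 100 among 15818 genes. False calls numbered 6 of 107 and 12 of 128. Apart from the changed genes, simulated counts varied around 1 mean per gene for all groups, without the library class or the difference between controls. These rates may therefore not hold in the real libraries.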

Additional observations from a re-analysis of the deposited data

Results flagged for a closer look

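Lrp1 was lower in both sgMif libraries than in both sgSCR libraries and higher in both libraries labelled shMif than in both shSCR libraries. The sgMif minus labelled shMif difference of the log2 fold changes was -0.64 ± 0.20 SE. Ncl went the opposite way, above sgSCR in both sgMif libraries and below shSCR in both libraries labelled shMif, with a difference of 1.1 ± 0.27 SE. Neither difference was tested, because the guide comparison was known from earlier results. Among all genes tested, 13.1% had such opposite directions without overlap.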

How the results depend on the processing

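The number of genes called in sgMif against sgSCR was 161, and it was 990 with DESeq2, 1494 with no filter on low counts, 16 with counts scaled by transcript length, 49 with a term for the library class, 534 in the high class alone and 0 to 356 with single libraries left out (0 without sgMif 2, sgSCR 1 or sgSCR 2, and 2 without sgMif 1). In labelled shMif against shSCR it was 3, and it was 182 with DESeq2, 662 with no filter, 5 with length scaling, 0 with each system fitted alone, 7 with the class term, 1162 in the high class and 0 to 758 with single libraries left out (758 without shSCR 2). Members called there numbered 0, and 1 with DESeq2, 2 with no filter, 3 in the high class and 0 to 2 with single libraries left out. List genes called in sgMif against sgSCR numbered 4, and 20 with DESeq2, 23 with no filter, 0 with length scaling, 1 with the class term, 14 in the high class and 0 to 7 with single libraries left out. In labelled shMif against shSCR they numbered 0, and 2 with DESeq2, 7 with no filter, 13 in the high class and 0 to 10 with single libraries left out. The cause was not tested.

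The log2 fold change of Ptn in labelled shMif against shSCR stayed between 1.53 and 2.19 when single libraries were left out. It passed with DESeq2 (1.84, adjusted p = 2.52e-09) and with no filter (1.79, adjusted p = 6.07e-11). It did not pass with size factors by relative log expression, protein-coding transcripts, length scaling, each system alone or the class term (edgeR adjusted p = 0.0873, 0.0876, 0.230, 0.387 and 0.0563). In the high class it was 2.14. That class held 1 library labelled shMif and 1 shSCR library, with the spread taken from the sgSCR pair, so its counts above say nothing of spread within the hairpin groups. Single libraries left out turned the sign for Sdc1 (-0.21 to 0.08), Sdc2 (-0.33 to 0.079) and Sdc3 (-0.30 to 0.53) there. With protein-coding transcripts alone, mean levels were 218 TPM for Lrp1 and 28.3 TPM for Ncl.

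Same-numbered libraries deviated together in all 6 pairs of groups (r = 0.15 to 0.37 over 16309 genes, 0.18 for sgMif with sgSCR and 0.26 for labelled shMif with shSCR), a hint from the data. In sgMif, labelled shMif and shSCR, library 1 was in the high olfactory class and library 2 in the low class. Replicate number and class therefore cannot be told apart there. Pairs among these groups had r of 0.232 to 0.371, and pairs with sgSCR, both of whose libraries were in the high class, 0.154 to 0.182. The labels state no pairing, and each comparison has 2 pairs. With the replicate block, 263 genes were called in sgMif against sgSCR and 14 in labelled shMif against shSCR, where Ptn passed as the 1 member called (1.86, edgeR adjusted p = 0.0424). Mdk, Ptprz1 and Alk rested on 0 to 60 reads per library.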
